A study of Homo sapiens with 6 samples.

Results

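Chemokines are small secreted proteins, and the genes described here are 8 that draw T cells and monocytes into tissue: CXCL9, CXCL10, CXCL11, CXCL16, CCL2, CCL5, CCL20 and CX3CL1. They were picked by symbol, 8 of the 58174 genes in the deposited tables. SiHa is an established human line of cervical squamous carcinoma cells. These cells were transfected by lipofection with the plasmid GV230-BRCA1 (OV-BRCA1 group, 3 samples) or with the empty plasmid GV230 (NC group, 3 samples), so the NC cells had also been given plasmid DNA and transfection reagent. RNA was collected 48 h after transfection, and mRNA was captured on beads and sequenced. The deposited values are FPKM, that is, fragments scaled by the length of the transcript and by the depth of the sample, and the values of all transcripts of a gene were added.

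Chemokines bind to receptors on passing leukocytes and direct where these cells move. CXCL9, CXCL10 and CXCL11 share the receptor CXCR3 of activated T cells and NK cells, and all are classic products of interferon signaling. CCL2 attracts monocytes through CCR2, CCL5 attracts T cells and monocytes, and CCL20 attracts Th17 cells and immature dendritic cells through CCR6. CXCL16 and CX3CL1 stand apart from the others because they are made as membrane-bound proteins, which the proteases ADAM10 and ADAM17 can shed, and they bind to CXCR6 and CX3CR1. NF-kB, the transcription factor activated by TNF and IL-1, is a known inducer of CCL2, CCL5, CCL20 and CXCL10. Squamous epithelial cells can make several of these chemokines themselves.

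The promoters of CXCL9, CXCL10, CXCL11 and CCL20 were matched in the RefSeq table used and are shown, so that 3 upregulated genes can be set beside CXCL9, which stayed near 0. Each window holds 250 bases before and 50 bases after the RefSeq start of the gene, 5′ to 3′ on the strand of the gene, with coordinates of GRCh38.p14. Capitals mark matches to GAAANNGAAA (the core of an interferon-stimulated response element), GGGAANNNCC (an NF-kB form) or TTCNNNGAA (the palindrome of a gamma-activated site), searched on both strands. These letters were chosen after the sequences had been read, and no match overlapped another.
CXCL9, chr4:76007460-76007759, minus strand: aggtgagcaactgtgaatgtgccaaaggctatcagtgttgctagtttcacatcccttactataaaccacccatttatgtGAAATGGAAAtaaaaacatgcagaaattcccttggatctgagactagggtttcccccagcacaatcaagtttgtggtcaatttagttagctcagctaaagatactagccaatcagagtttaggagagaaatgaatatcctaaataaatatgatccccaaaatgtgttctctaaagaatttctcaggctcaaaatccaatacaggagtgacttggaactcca
CXCL10, chr4:76023448-76023747, minus strand: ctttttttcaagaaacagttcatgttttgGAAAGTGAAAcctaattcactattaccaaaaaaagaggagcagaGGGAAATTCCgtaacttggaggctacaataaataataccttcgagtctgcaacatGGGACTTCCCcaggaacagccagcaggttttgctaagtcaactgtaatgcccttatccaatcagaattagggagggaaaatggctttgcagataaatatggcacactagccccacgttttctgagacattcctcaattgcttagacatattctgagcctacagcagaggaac
CXCL11, chr4:76036021-76036320, minus strand: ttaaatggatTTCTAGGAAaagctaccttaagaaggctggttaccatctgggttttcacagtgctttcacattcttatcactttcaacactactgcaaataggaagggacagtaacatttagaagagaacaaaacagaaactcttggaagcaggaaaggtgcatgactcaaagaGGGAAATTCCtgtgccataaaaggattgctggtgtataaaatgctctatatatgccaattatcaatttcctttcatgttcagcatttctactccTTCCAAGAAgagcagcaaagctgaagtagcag
CCL20, chr2:227813592-227813891, plus strand: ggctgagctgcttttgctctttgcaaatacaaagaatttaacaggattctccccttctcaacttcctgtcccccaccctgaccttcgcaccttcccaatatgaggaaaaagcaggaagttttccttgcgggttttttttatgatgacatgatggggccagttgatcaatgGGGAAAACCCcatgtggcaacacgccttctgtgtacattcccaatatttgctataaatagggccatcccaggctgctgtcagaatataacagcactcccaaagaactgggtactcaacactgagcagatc

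Positions are distances in bases from the start base of the gene, negative before it. CXCL10 had GAAAGTGAAA at -221 to -212, GGGAAATTCC at -177 to -168 and, read on the opposite strand, another NF-kB form at -122 to -113. CXCL9 had the interferon core GAAATGGAAA at -171 to -162 as its single match. CXCL11 had GGGAAATTCC at -76 to -67, the same letters as in CXCL10, and TTCTAGGAA at -240 to -232 and TTCCAAGAA at 18 to 26. CCL20 had GGGAAAACCC at -80 to -71. Among 35116 RefSeq promoters of the same length, 3.57% held GAAANNGAAA, 6.9% held GGGAANNNCC and 7.66% held TTCNNNGAA. The windows of CXCL11 and CCL20 lie inside the span that GENCODE 29 gives these genes, and other starts were not examined. A match of letters describes the window and does not show binding.

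BRCA1, the transfected gene, stood at 35.7, 40.8 and 34.9 FPKM in the OV-BRCA1 samples and at 20.1, 14.9 and 21.7 FPKM in the NC samples. The groups did not overlap, and the log2 fold change was 0.95 (limma, adjusted p = 0.00373), just under the fold change of the criterion below. It lay over the criterion without NC replicate 1 (1.00) or without NC replicate 3 (1.06), and it was 0.80 at the lowest with a sample left out. Depth was estimated from the FPKM of low genes, since the files hold no counts, and ranged from 14.05 to 16.75 M fragments (OV-BRCA1) and from 16.15 to 19.9 M fragments (NC). Of 8 epithelial markers, KRT8, KRT18, SFN and EPCAM reached 1 FPKM in any sample, and KRT8 and KRT18 stood between 188 and 385 FPKM in all 6 samples. KRT19 and CDH1, general epithelial markers, stayed below 1 FPKM, and KRT5 and TP63, which mark squamous cells, below 0.5 FPKM. EPCAM passed the criterion described below, at 6.79 ± 0.86 FPKM against 2.59 ± 0.457 FPKM (SD, n = 3 each). Of 16 leukocyte markers, 6 were listed at 0 in every sample, among them PTPRC and CD3D, and only CD14 and CD68 reached 1 FPKM in any sample. The summed leukocyte list was 31.9 to 37.6 FPKM in the OV-BRCA1 group and 23.1 to 24.9 FPKM in the NC group. CD68 was higher in the OV-BRCA1 group (22.2 to 29.4 against 2.74 to 4.17 FPKM) and CD14 was lower (6.65 to 9.04 against 17.8 to 20.4 FPKM). The summed epithelial list was 729 to 783 against 641 to 676 FPKM and the summed stromal list, of endothelial and fibroblast genes, 4.07 to 4.77 against 6.78 to 7.52 FPKM. COL1A1 carried the lower stromal sum (3.28 against 6.39 FPKM on average), and PECAM1, the other stromal marker to reach 1 FPKM, stood at 1.02 against 0.703 FPKM on average with overlapping groups. The part of these markers in the chemokine values was not tested. In bulk RNA, fewer cells of a type and less RNA per cell cannot be told apart.

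Of the 8 chemokine genes, CXCL10, CXCL11, CCL5 and CCL20 were upregulated in the OV-BRCA1 group, CXCL16 rose by a smaller amount, and CXCL9, CCL2 and CX3CL1 stayed at or near 0 in all samples. The groups were compared by limma on log2(FPKM + 1), a scale that understates the change of low genes, in 16321 genes with at least 0.5 FPKM in at least 3 samples. Upregulated means an adjusted p-value below 0.05 and a log2 fold change above 1, the criterion of the study, which 2.89% of the tested genes passed upward and 1.1% downward. None of the 8 was downregulated. The adjusted p-value alone was passed upward by CXCL16 as well, against 16.4% of the tested genes. In the 5 genes tested all OV-BRCA1 samples exceeded all NC samples, which held for 23.4% of the tested genes. CXCL10 and CXCL11 entered the test through the OV-BRCA1 samples only and had to differ, so only CXCL16, CCL5 and CCL20 were free to show no difference. The samples are described in the study as biological replicates, and with 3 against 3 the smallest p of a two-sided exact permutation test is 0.1.

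**Figure D1:**
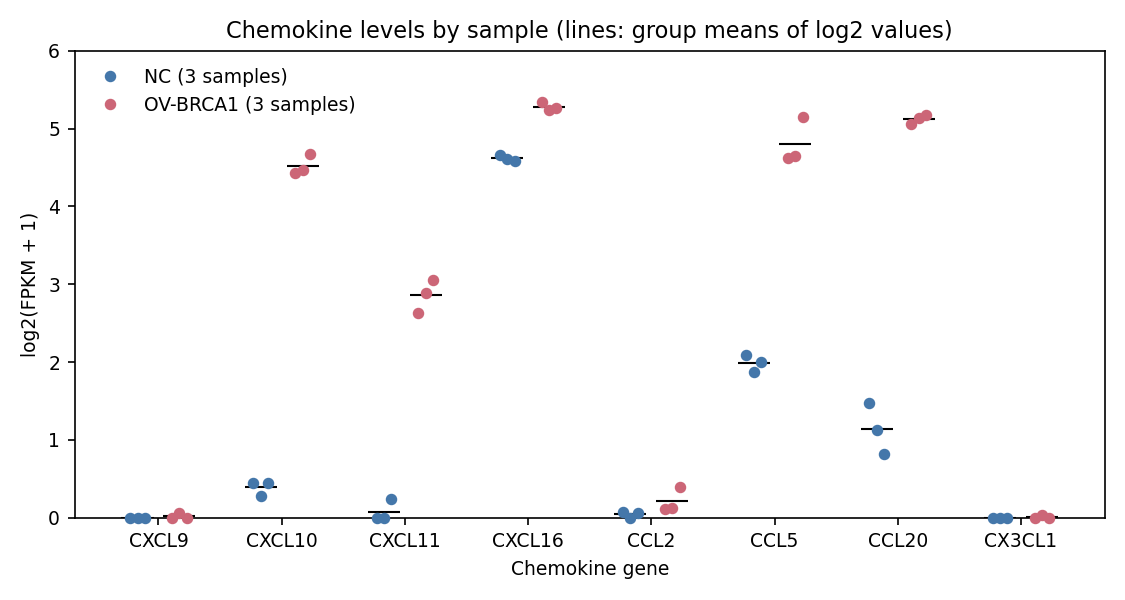
Level of each of the 8 chemokine genes by sample, as log2(FPKM + 1), with 3 OV-BRCA1 and 3 NC samples per gene as points and the group means of the log2 values as lines. CXCL10, CXCL11, CCL5, CCL20 and CXCL16 show separate groups, and CXCL9, CCL2 and CX3CL1 lie near 0 in both.

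The ligands of CXCR3 lie side by side on chromosome 4, where CXCL10 and CXCL11 were upregulated and CXCL9 stayed near 0. CXCL10 (ENSG00000169245, chr4:76021117-76023497, minus strand, GRCh38) had 20.5, 21.2 and 24.5 FPKM in the OV-BRCA1 samples, in the order of replicates 1, 2 and 3 kept throughout, and 0.364, 0.218 and 0.359 FPKM in the NC samples. All OV-BRCA1 samples were close to each other and far above the NC samples. The mean was 22.1 ± 2.14 FPKM (SD, n = 3) against 0.314 ± 0.0833 FPKM (SD, n = 3), a ratio of 70.4. On the log2(FPKM + 1) scale the difference was 4.13 (standard error 0.10, 95% interval 3.89 to 4.37, limma adjusted p = 3.88e-06), the rank of 7 from the top among all genes tested. An estimated 4.95 to 8.41 fragments stand behind each NC value and 376 to 418 behind each OV-BRCA1 value, so the low group sets the precision of the ratio.

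CXCL11 (ENSG00000169248, chr4:76033682-76041415, minus strand) stood at 5.21, 6.39 and 7.32 FPKM in the OV-BRCA1 samples, and in the NC samples it was listed at 0 in samples 1 and 2 and at 0.181 FPKM in sample 3. The groups did not overlap, and the OV-BRCA1 level was less than that of CXCL10 in every sample. Its log2 fold change was 2.78 (standard error 0.14, 95% interval 2.45 to 3.11, limma adjusted p = 4.87e-05). This size depends on the pseudocount, because only an estimated 5.78 fragments, from NC sample 3, stand behind the NC group. With a pseudocount of 0.1 it was 5.49 (CXCL10, 5.76). The longer transcript of 1606 bases, ENST00000306621, carried 89.7% to 91.7% of the CXCL11 value in the OV-BRCA1 samples.

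CXCL9 (ENSG00000138755, chr4:76001275-76007488, minus strand) was listed at 0 in all NC samples and in OV-BRCA1 samples 1 and 3, and it stood at 0.0404 FPKM in OV-BRCA1 sample 2, an estimated 1.85 fragments. It was therefore not tested. Without the filter on low values its log2 fold change was 0.02 (95% interval -0.03 to 0.07, limma adjusted p = 0.585 over 33326 genes). At the lowest depth, 1 fragment of CXCL9 is worth 0.026 FPKM, so any level of this gene was at the limit of what the sequencing could register. CXCL9 lies 13.6 kb from CXCL10 and CXCL10 lies 10.2 kb from CXCL11.

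Neighbouring genes were examined because the sources do not say if reads were counted by strand. CXCL10 and CXCL11 lie inside the span of ART3, an ADP-ribosyltransferase gene on the opposite strand. ART3 was listed at 0 in all samples but OV-BRCA1 sample 3 (0.141 FPKM), and the pseudogene AC112719.1 inside CXCL11 was listed at 0 in all 6. AC112719.2, which overlaps CXCL9 on the opposite strand, did not exceed 0.0304 FPKM. The nearest protein-coding genes outside this group, SDAD1 and NUP54, had log2 fold changes of 0.34 and 0.40, with groups that did not overlap. Both passed the adjusted p-value (0.0127 and 0.0133, limma) but not the fold change of the criterion. Neither passed the adjusted p-value with the most abundant transcript (limma, 0.456 and 0.52, the highest over the alternatives). The log2 fold changes of SDAD1 and NUP54 were then 0.64 and 0.40, with standard errors of 0.54 and 0.39.

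CCL5 (ENSG00000271503, chr17:35871491-35880793, minus strand), also known as RANTES, stood at 23.7, 24.0 and 34.6 FPKM in the OV-BRCA1 samples and at 3.28, 2.65 and 3 FPKM in the NC samples. OV-BRCA1 sample 3 was the highest and lay apart from the other OV-BRCA1 samples, and the groups did not overlap. The mean was 27.5 ± 6.20 FPKM against 2.98 ± 0.317 FPKM (SD, n = 3 each), a ratio of 9.23. The log2 fold change was 2.82 (standard error 0.16, 95% interval 2.44 to 3.20, limma adjusted p = 8.03e-05), and it was 2.65 without OV-BRCA1 replicate 3. Among its transcripts, ENST00000603197 of 1365 bases carried 88.5% to 96.4% of the value in the OV-BRCA1 samples and 98.9% to 100% in the NC samples. The shorter ENST00000605509 stood at 2.73, 1.79 and 1.24 FPKM in the OV-BRCA1 samples and did not exceed 0.0238 FPKM in the NC samples. AC015849.1, which overlaps CCL5 on the opposite strand, had a mean of 0.466 ± 0.0278 FPKM against 0.534 ± 0.236 FPKM (SD, n = 3 each), with overlapping groups. The nearest protein-coding genes were HEATR9, at or near 0, and RDM1, with a log2 fold change of -0.23 (95% interval -0.48 to 0.02).

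CCL20 (ENSG00000115009, chr2:227805739-227817564, plus strand) stood at 32.4, 34.1 and 35.1 FPKM in the OV-BRCA1 samples and at 1.77, 1.19 and 0.768 FPKM in the NC samples. The OV-BRCA1 samples agreed closely and the NC samples were more spread relative to their level. The mean was 33.9 ± 1.33 FPKM against 1.24 ± 0.502 FPKM (SD, n = 3 each), a ratio of 27.2. The log2 fold change was 3.98 (standard error 0.16, 95% interval 3.59 to 4.37, limma adjusted p = 2.14e-05), the rank of 12 from the top. All 4 transcripts of CCL20 were higher in every OV-BRCA1 sample than in any NC sample. ENST00000358813 of 800 bases was the most abundant (19.7 to 20.9 against 0.346 to 1.40 FPKM), followed by ENST00000409189 of 839 bases (9.69 to 12.9 against 0.224 to 0.419 FPKM). The nearest protein-coding gene at the lower coordinate, SLC19A3, was listed at 0 in all samples. DAW1, 53.5 kb away on the other side and on the same strand, stood at 1.92, 2.64 and 1.85 FPKM in the OV-BRCA1 samples and at 0.0722, 0.258 and 0.155 FPKM in the NC samples. Its log2 fold change was 1.43, and it too entered the test through the OV-BRCA1 samples only and had to differ.

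CCL2 (ENSG00000108691, chr17:34255218-34257203, plus strand), the main monocyte chemokine, stood at 0.0813, 0.0949 and 0.320 FPKM in the OV-BRCA1 samples and at 0.0577, 0 and 0.0459 FPKM in the NC samples. Although the groups did not overlap, no sample exceeded an estimated 3.59 fragments, and the gene was not tested. Without the filter the log2 fold change was 0.17 (95% interval -0.04 to 0.38, limma adjusted p = 0.29). Its neighbours ASIC2 and CCL7 were at or near 0.

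The membrane-bound chemokines were at very different levels in these cells. CXCL16 (ENSG00000161921, chr17:4733526-4739922, minus strand) stood at 39.5, 36.6 and 37.3 FPKM in the OV-BRCA1 samples and at 24.4, 23.4 and 22.9 FPKM in the NC samples. It was the most abundant of the 8 genes in either group, and its groups did not overlap. The mean was 37.8 ± 1.55 FPKM against 23.6 ± 0.753 FPKM (SD, n = 3 each), a ratio of 1.60. Its log2 fold change of 0.66 (standard error 0.06, 95% interval 0.53 to 0.79, limma adjusted p = 0.000402) was larger than the spread between samples, and the whole interval lay under the fold change of the criterion. ENST00000293778 of 2222 bases carried 92.5% to 96.5% of CXCL16 in all samples. The end of CXCL16 overlaps that of MED11 on the opposite strand, whose log2 fold change was -0.32 (limma adjusted p = 0.0268, and 0.0176 to 0.167 over the alternatives). ZMYND15, 93 bases from CXCL16, had a log2 fold change of 0.25, which did not pass (limma adjusted p = 0.0884, and 0.0696 to 0.222 over the alternatives), and ARRB2 one of -0.29 (limma adjusted p = 0.143, and 0.0433 to 0.7 over the alternatives, the lowest without NC replicate 2).

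CX3CL1 (ENSG00000006210, chr16:57372458-57385048, plus strand), also known as fractalkine, was listed at 0 in 5 samples and stood at 0.0214 FPKM in OV-BRCA1 sample 2, an estimated 2.08 fragments. It was not tested, and without the filter its log2 fold change was 0.01 (95% interval -0.02 to 0.05, limma adjusted p = 0.684). Its neighbours CCL22 and CCL17 were also at or near 0. The sheddases of CXCL16 and CX3CL1 were present in both groups. ADAM10 had a log2 fold change of 0.12 (95% interval -0.09 to 0.32) and ADAM17 one of 0.24 (95% interval -0.05 to 0.52), and neither passed the adjusted p-value. DPP4, the protease that trims CXCL10 and CXCL11, did not exceed 0.0159 FPKM in any sample.

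The 8 genes together summed to 122, 122 and 139 FPKM in the OV-BRCA1 samples and to 29.8, 27.5 and 27.3 FPKM in the NC samples, a ratio of 4.53 between the means. In the NC group CXCL16 made up 83.6% ± 1.81 of this sum, and in the OV-BRCA1 group 29.7% ± 2.86 (SD, n = 3 each). CCL20 went from 4.36% ± 1.55 to 26.6% ± 1.32, CCL5 from 10.5% ± 0.793 to 21.3% ± 3.05 and CXCL10 from 1.11% ± 0.28 to 17.3% ± 0.374. The sum was therefore spread over 4 genes in the OV-BRCA1 group and held mostly by CXCL16 in the NC group. In order of mean FPKM, the OV-BRCA1 group had CXCL16, CCL20, CCL5, CXCL10, CXCL11 and CCL2. CCL20 and CCL5 overlapped between samples, and so did CCL5 and CXCL10. Within each OV-BRCA1 sample the order of CCL20, CCL5 and CXCL10 was the same. In sample 3 CCL20 was only narrowly above CCL5 (35.1 against 34.6 FPKM). The NC group had CXCL16, CCL5, CCL20 and CXCL10, none of which overlapped its neighbour in the order. OV-BRCA1 sample 3 had the highest value of that group for CXCL10, CXCL11, CCL5 and CCL20, but not for CXCL16.

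**Figure D2:**
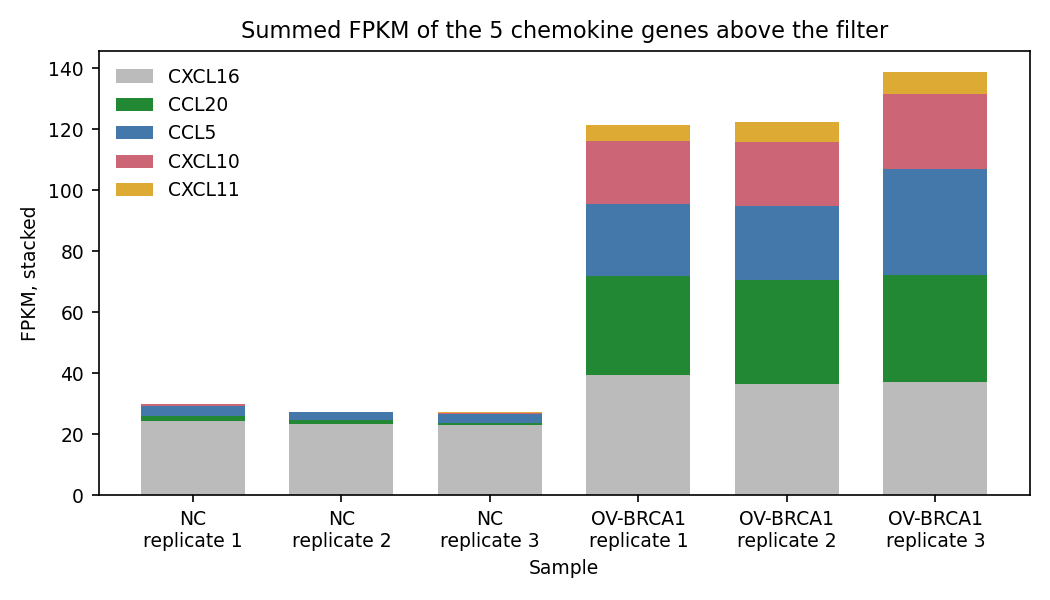
Summed FPKM of the 5 chemokine genes above the filter in each of the 6 samples, stacked by gene on a linear axis from 0. CXCL16 fills most of each NC bar, and the OV-BRCA1 bars add CCL20, CCL5, CXCL10 and CXCL11 on top of a CXCL16 part that is 1.60 times larger on average.

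Of 38 other chemokine ligands, 18 were listed at 0 in all samples and 6 were tested, of which 5 were upregulated and none was downregulated. Of all tested genes, 2.89% were upregulated and 1.1% downregulated. The upregulated ligands were CXCL8, CXCL1, CXCL2 and CXCL3, which attract neutrophils through CXCR1 and CXCR2, and CCL3L1, which attracts monocytes. CXCL8 stood at 125, 121 and 131 FPKM in the OV-BRCA1 samples and at 5.39, 5.82 and 6.29 FPKM in the NC samples, with a log2 fold change of 4.21 (limma adjusted p = 1.24e-06). Its 95% interval of 4.05 to 4.38 overlaps that of CXCL10. CXCL1 rose by 2.88, CXCL2 by 2.14 and CXCL3 by 1.74 on the log2 scale. CCL3L1 stood at 4.70, 6.75 and 4.43 FPKM against 0.201, 0.470 and 0.373 FPKM, passed the filter through the OV-BRCA1 samples only, and is uncertain because reads could be split between it and the near-identical CCL3. The remaining tested ligand, CCL28, was named after its value had been seen and stood at 12.5 FPKM on average in either group (95% interval of the log2 fold change -0.21 to 0.21). The study, which used DESeq, lists CCL28 among its downregulated genes.

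The receptors CXCR3, CXCR6, CCR2, CCR6 and CX3CR1 were low or undetected in these epithelial cells. CCR6 and CX3CR1 were listed at 0 in all samples, and CXCR3 stood at 0.0295 FPKM in NC sample 2 and was listed at 0 in the others. CXCR6 stood at 0.242, 0.482 and 0.526 FPKM against 0.316, 0.261 and 0.222 FPKM, and CCR2 did not exceed 0.180 FPKM, with overlapping groups for both. Of 23 chemokine receptors 4 were tested, and CCR4, the receptor of CCL17 and CCL22, was upregulated, as 2.89% of all tested genes were. CCR4 stood at 7.24, 7.38 and 7.30 FPKM in the OV-BRCA1 samples and at 0.0951, 0.247 and 0.258 FPKM in the NC samples (log2 fold change 2.79, limma adjusted p = 8.89e-06), and it too passed the filter through the OV-BRCA1 samples only. CCR3, a receptor of CCL5, had a log2 fold change of 0.78 (limma adjusted p = 0.00349) and did not pass the fold change of the criterion. ACKR3, the atypical receptor that binds CXCL11, was abundant, at 55.6 FPKM against 54.8 FPKM on average (95% interval of the log2 fold change -0.11 to 0.15). Behind this near-equal sum stood an estimated 951, 965 and 809 fragments in the OV-BRCA1 samples and 1950, 2210 and 2460 in the NC samples. With the most abundant transcript of ACKR3 in place of the sum, the log2 fold change was -1.99 (limma adjusted p = 4.93e-05 of a range of 4.93e-05 to 0.912), a downward call. CCR3 and ACKR3 were chosen for naming with their values known.

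**Figure D3:**
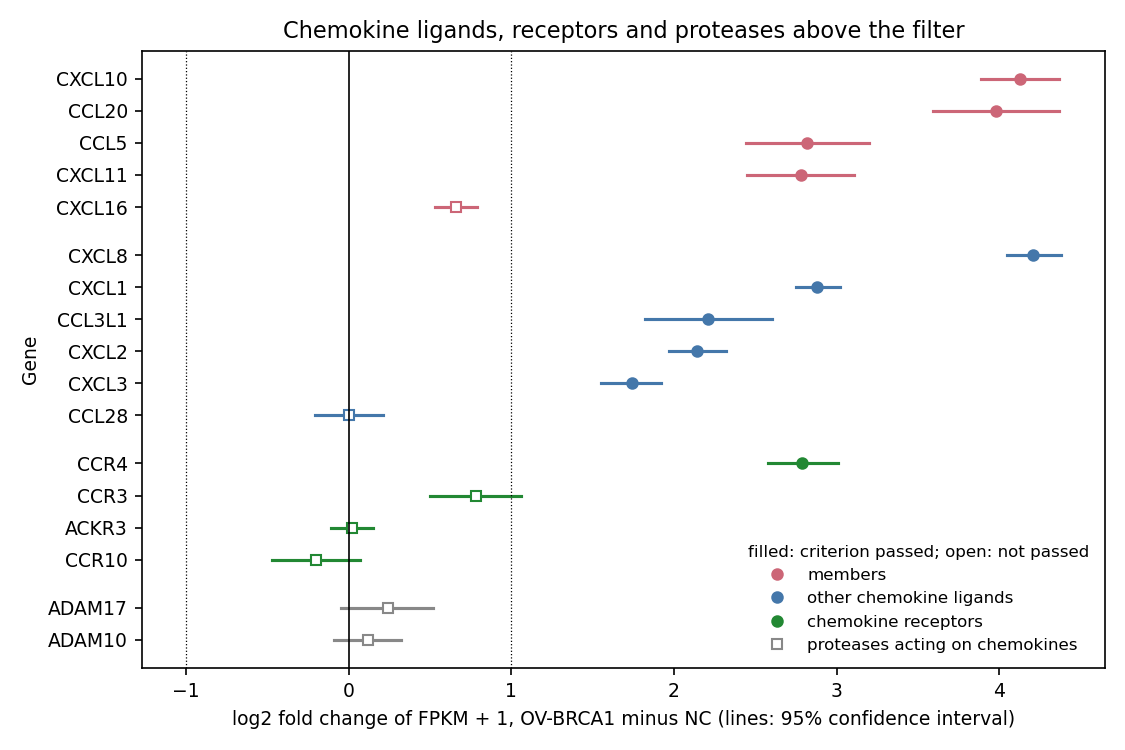
Log2 fold change of FPKM + 1, OV-BRCA1 minus NC, with 95% intervals as lines, for the tested genes among the 8 chemokines, other ligands, receptors and proteases. Filled symbols passed the criterion, which lies outside the dotted lines, and open symbols did not. CXCL10, CCL20 and CXCL8 lie farthest to the right, and CCL28, ACKR3, ADAM10 and ADAM17 lie near 0.

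Cytokines known to induce these chemokines were mostly low. IFNG, the classic inducer of CXCL9, was listed at 0 in all 6 samples, and TNF did not exceed 0.195 FPKM. IFNL1, a type III interferon gene, stood at 3.76, 2.68 and 2.29 FPKM in the OV-BRCA1 samples, with all NC samples listed at 0, so it entered the test through the OV-BRCA1 samples only and had to differ. IFNB1 stood at 0.686, 0.774 and 0.479 FPKM against 0.143, 0.0641 and 0 FPKM and was below the filter. IL1A and IL1B had log2 fold changes of 0.97 and 0.96, with adjusted p-values of 0.000508 and 0.00158 (limma), just under the fold change of the criterion. IL1A entered the test through the OV-BRCA1 samples only. IL1A passed the criterion without NC replicate 1 (1.00) and IL1B without NC replicate 3 (1.07).

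All 22 genes of the interferon and NF-kB signaling list were tested, with a median log2 fold change of 0.28 against -0.04 over all genes tested. Upward 10 of them passed the adjusted p-value and 3 the whole criterion, and downward 2 passed the adjusted p-value and none the criterion. Of all tested genes, 16.4% and 2.89% did so upward and 18.9% and 1.1% downward. The upregulated genes were IRF7, RELB and IRF1. IRF7, a transcription factor that drives interferon genes, stood at 97.5, 94.0 and 80.3 FPKM against 32.4, 24.6 and 29.7 FPKM (log2 fold change 1.62, limma adjusted p = 0.000244). RELB, an NF-kB subunit, stood at 9.09, 7.81 and 8.39 FPKM against 3.29, 2.02 and 3.30 FPKM (log2 fold change 1.30). With the most abundant transcript neither RELB (limma adjusted p = 0.3 of a range of 0.00137 to 0.3) nor IRF1 (0.44 of a range of 0.00893 to 0.44) passed. Their log2 fold changes were then 0.88 and 1.08, with standard errors of 0.52 and 0.87. IRF1, which binds to interferon-stimulated response elements, stood at 17.4, 17.7 and 27.1 FPKM against 8.08, 11.5 and 9.50 FPKM, at a log2 fold change of 1.00. The IRF1 call rested on single samples, since its log2 fold change was 0.80 without OV-BRCA1 replicate 3, 0.89 without NC replicate 1 and, just under the criterion, 1.00 without NC replicate 3. STAT2 (0.93) and NFKB2 (0.84) passed the adjusted p-value only. RELA, another NF-kB subunit, was lower in the OV-BRCA1 samples, at 33.5, 15.8 and 19.9 against 37.6, 39.6 and 37.4 FPKM. Its log2 fold change of -0.77 did not pass the adjusted p-value (limma, 0.0544). The kinases JAK1 (-0.28) and TYK2 (-0.58) were the genes that passed it downward, and TYK2 did not pass with the most abundant transcript (-1.07, limma adjusted p = 0.211 of a range of 0.0116 to 0.211).

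**Figure D4:**
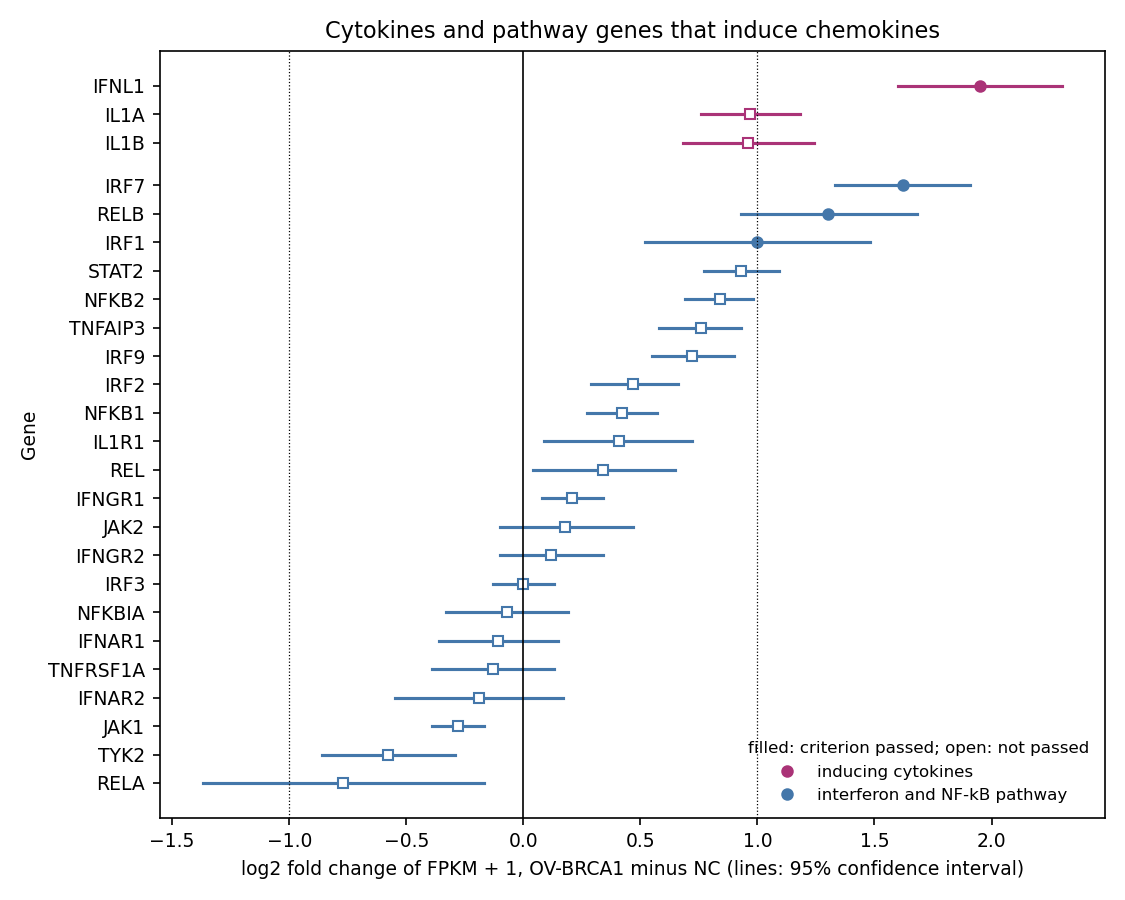
Log2 fold change of FPKM + 1, OV-BRCA1 minus NC, with 95% intervals as lines, for 3 tested cytokine genes and 22 genes of interferon and NF-kB signaling. Filled symbols passed the criterion and open symbols did not. IFNL1, IRF7, RELB and IRF1 are filled, and the interval of IRF1 extends from 0.52 to 1.48.

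The genes whose pattern was most like each upregulated chemokine were found among 12333 protein-coding genes, by the Euclidean distance over the 6 samples of log2(FPKM + 1) minus the NC mean. For CXCL10 these were IFIT3 and DHRS2, both at a distance of 0.24. For CXCL11 they were OAS2 (0.26) and GMPR (0.31), and for CCL5 they were OAS2 (0.31) and CXCL11 itself (0.35). For CCL20 they were TRIM22 (0.26) and DHRS2 (0.41). IFIT3, OAS2 and TRIM22 are known interferon-stimulated genes, DHRS2 encodes a short-chain dehydrogenase and GMPR a guanosine monophosphate reductase. With groups of 3 this likeness is mainly a like difference between the groups.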

How the data were processed

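mRNA of 6 SiHa cell samples was sequenced, and samples were assigned to the OV-BRCA1 and NC groups and to replicate numbers from their labels. FPKM values per transcript were made and deposited by the authors, whose processing notes name FastQC, HISAT2 and the genome build hg38 and whose text gives the removal of adapter, unknown and low-quality reads. The tool behind the FPKM, its annotation and its use of strand are not given in the sources used here. The deposited table held 199167 transcripts of 58174 genes, with the same values in 6 sample files, and 198868 transcripts carried identifiers of GENCODE 29, which gave gene names and positions.

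FPKM was summed per gene and tested with limma 3.58.1 (R 4.3.3, trend, no robust estimation) on log2(FPKM + 1), with Benjamini-Hochberg adjustment over 16321 genes at 0.5 FPKM or more in at least 3 samples. A count model, such as the DESeq test of the authors, cannot be run on FPKM. Low values did not resolve into whole fragments (35% to 43.4% lay within 0.1 of one), so depths and fragments are estimates. The test was run on simulated data, where it recovered 200 of 200 changed genes and called 0 others among 15809. Recovery of genes near 0 in the NC group, such as CXCL10 and CXCL11, was not tested. Recovery of log2 fold changes near 1, such as those of IRF1 and BRCA1, was not tested either. The 8 genes, the lists and the alternatives (pseudocount 0.1, no filter, at least 1 FPKM, replicate block, each sample left out, median-of-ratios scaling, most abundant transcript, robust estimation) were chosen with earlier results of these data known. Some genes covered by the lists or the naming rule are not reported here.

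Genes named were the 8 chemokines, BRCA1, up to 5 genes past the criterion from each list by the smallest adjusted p-value, ADAM10, ADAM17, DPP4, the receptors CXCR3, CXCR6, CCR2, CCR6 and CX3CR1, overlapping or nearest protein-coding genes, and the 2 genes nearest in pattern. Others are said to be named after their values had been seen. So were STAT2, NFKB2, RELA, JAK1, TYK2, IFNGR1, IRF9, TNFAIP3, IL1A, IL1B, TNF, IFNG, IFNB1 and the cell type markers. Promoters came from a table of RefSeq sequences (GRCh38.p14), in which 4 of the 8 genes were matched (CXCL9, CXCL10, CXCL11 and CCL20). Tables and plots were made in Python 3.11.15 (pandas 2.3.3, numpy 2.4.6, matplotlib 3.10.9).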

Additional observations from a re-analysis of the deposited data

How the results depend on the processing

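The tested chemokine genes CXCL10, CXCL11, CXCL16, CCL5 and CCL20 kept their direction and their side of the criterion in all 13 alternatives, and 4 of the 8 genes were upregulated in each. In the main fit 2.89% of all tested genes were upregulated. CXCL10 and CXCL11 entered the test through the OV-BRCA1 samples only, so their direction was largely set in advance. Over these alternatives the log2 fold change ranged from 4.06 to 5.76 for CXCL10, 2.66 to 5.49 for CXCL11, 3.57 to 4.73 for CCL20, 2.65 to 3.15 for CCL5 and 0.63 to 0.70 for CXCL16, with the upper ends for CXCL10, CXCL11, CCL20 and CCL5 at a pseudocount of 0.1. Other ligands upregulated stayed at 5. With a pseudocount of 0.1, receptors upregulated numbered 2 in place of 1 (CCR3 joined, at 1.5) and genes upregulated 764 in place of 472. The pathway count was 3 and ranged from 2 to 4. With the most abundant transcript IRF1 (limma adjusted p = 0.44 of a range of 0.00893 to 0.44) and RELB (0.3 of a range of 0.00137 to 0.3) did not pass. Nor did TYK2 and IRF9 pass the adjusted p-value alone, although the log2 fold change of IRF9 was 1.54 against 0.72 in the main fit. STAT2 (1.34), NFKB2 (1.11) and TNFAIP3 (1.03), which with IRF7 make the 4, passed the criterion, as did IL1B (1.11) and BRCA1 (1.13). IL1A (2.1) and IL1B (1.6) also passed with a pseudocount of 0.1. The sign of CCL28 turned to 0.03 with median-of-ratios scaling and 0.19 with the most abundant transcript, and ranged from -0.08 to 0.06 with a sample left out. ACKR3 turned to -1.99 with the most abundant transcript and ranged from -0.01 to 0.04 with a sample left out, and ARRB2 turned to 0.56 with the most abundant transcript. The cause of these changes was not tested. Scaling by the median of ratios moved the median log2 fold change of all genes from -0.036 to -0.007.

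Samples with the same number did not deviate together (correlations of -0.0244, 0.025 and 0.0136 for numbers 1, 2 and 3), so the numbers were not used to pair samples. With the replicate block 4 of the 8 chemokine genes and 470 genes in all were upregulated. The block changed no call by the whole criterion among the named genes examined with it. KRT8, KRT18, SFN, CDH1, COL1A1, PECAM1 and RELA were not among these. By the adjusted p-value alone, MED11 (0.0689 with the block, limma) and IFNGR1, 1 of the 10 pathway genes counted upward (0.0776), were lost. IFNGR1 was also lost with any sample but OV-BRCA1 replicate 2 left out, and MED11 with any but NC replicate 1. Depth limits CXCL9, CCL2 and CX3CL1, each at no more than an estimated 3.59 fragments, and the NC values of CXCL10 and CXCL11.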

Other observations

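ACKR3, which binds CXCL11, had a near-equal sum in both groups and unequal transcripts. ENST00000272928 of 2203 bases stood at 13.0, 12.5 and 13.0 FPKM in the OV-BRCA1 samples and at 54.6, 51.6 and 55.9 FPKM in the NC samples. ENST00000447924 of 713 bases stood at 45.3, 42.3 and 40.8 FPKM in the OV-BRCA1 samples and at 0.862, 0.810 and 0.599 FPKM in the NC samples. The groups were separate for both transcripts and in opposite directions, and the tool that divided the reads between them is not known.

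Below the filter on low values, CCL3 stood at 0.491, 0.934 and 1.06 FPKM in the OV-BRCA1 samples and at 0.0430 FPKM in NC sample 1, and was listed at 0 in NC samples 2 and 3. Reads could be split between CCL3 and CCL3L1. CCL24, an eotaxin, stood at 0.322, 0.212 and 0.208 FPKM in the NC samples and was listed at 0 in all OV-BRCA1 samples, which rests on an estimated 2.40 to 3.04 fragments per NC sample.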
